A study of Mus musculus with 3 samples.

Results

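The miR-29 family is a group of 3 mature microRNAs (miRNAs), miR-29a-3p, miR-29b-3p and miR-29c-3p, and its reads were followed in C57BL/6 mouse hearts collected 1 (P1), 7 (P7) and 28 (P28) days after birth. The family was chosen by accession number in miRBase, the registry of miRNA sequences, as MIMAT0000535 (miR-29a-3p), MIMAT0000127 (miR-29b-3p) and MIMAT0000536 (miR-29c-3p). These are 3 of the 1900 mature accessions in the count table, and they occupy 4 of its 2049 rows, because miR-29b-3p has 2 rows. Each age is represented by 1 library made from total RNA with a small RNA kit from NEBNext, so no difference below has a replicate check and no p-value is given. All hearts were wild type per the labels, with no transgene or deletion, and the study describes the tissue as ventricles. How many animals went into a library is not given in the sources used here. The labelled tissue was not checked against marker miRNAs, because the table gives accessions without names and no pairing with names was used for any accession outside the family.

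MiRNAs are short noncoding RNAs that pair with messenger RNAs, chiefly through the bases near their 5′ end called the seed, and lower the output of those messengers. The miR-29 family is known for its sites in messengers of the extracellular matrix, including fibrillar collagens, elastin and fibrillin, and for sites in messengers of DNA methyltransferases and DNA demethylases. In the heart it is known as a group that holds collagen messengers down, and its fall after infarction has been tied to scar formation. The weeks after birth are the period in which mouse cardiomyocytes leave the cell cycle and the matrix between them is built up, and the comparison of the 3 ages asks how miRNAs change over that time.

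The mature sequences are shown first, because the members differ by so few bases that the assignment of a read to one of them bears on every value below. They are written 5′ to 3′, as given by RefSeq on GRCm38.p6, with the seed (bases 2 to 8) in capitals.
miR-29a-3p: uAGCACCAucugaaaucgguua
miR-29b-3p: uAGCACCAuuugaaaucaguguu
miR-29c-3p: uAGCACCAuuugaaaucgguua

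All 3 members carried one seed, AGCACCA, which pairs with the site UGGUGCU in a messenger. Among the 1679 mature miRNA names in the RefSeq table, only these 3 held that seed. With positions counted from 1 at the 5′ end, miR-29a-3p and miR-29c-3p differed by a single substitution, C10U. The difference between miR-29b-3p and miR-29c-3p was confined to the 3′ end, with A18G, G21U and U22A over the 22 positions that could be compared, and miR-29b-3p was 1 base longer at 23 bases. MiR-29a-3p differed from miR-29b-3p by C10U, G18A, U21G and A22U. The 3′ end that sets miR-29b apart has been described as a signal for import into the nucleus.

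The 3 miRNAs are cut from 4 hairpin precursors, which are shown with the 3p mature miRNA in capitals so that the common core and the different surroundings can be seen. The coordinates are those of RefSeq on GRCm38, the assembly that is also called mm10 and that the submitters' processing notes name. The count table itself gives no positions.
Mir29a: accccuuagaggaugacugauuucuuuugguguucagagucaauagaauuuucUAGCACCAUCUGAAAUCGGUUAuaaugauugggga
Mir29b-1: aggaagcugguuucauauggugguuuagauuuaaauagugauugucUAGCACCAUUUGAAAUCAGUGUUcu
Mir29b-2: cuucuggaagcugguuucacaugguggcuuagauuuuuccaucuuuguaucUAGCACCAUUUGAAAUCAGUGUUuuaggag
Mir29c: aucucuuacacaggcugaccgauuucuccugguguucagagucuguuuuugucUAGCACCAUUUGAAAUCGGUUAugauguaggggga

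The hairpins lie in a pair of clusters. Mir29a, at chr6:31062660-31062747, and Mir29b-1, at chr6:31063023-31063093, are both on the minus strand with 275 bases between them. Mir29a overlaps no other gene in GENCODE release M21, and Mir29b-1 overlaps the last 2 annotated bases, at the 3′ end, of an exon of the long noncoding RNA gene Gm27019 on the same strand. Mir29b-2, at chr1:195037040-195037120, and Mir29c, at chr1:195037547-195037634, are on the plus strand with 426 bases between them. Both lie wholly in an exon of a retained-intron transcript of the noncoding gene A330023F24Rik on the same strand, and opposite an exon of Cd46, which encodes a complement regulatory protein. MiR-29a-3p therefore comes from chromosome 6 alone, miR-29c-3p from chromosome 1 alone, and miR-29b-3p from both, so that its sequence does not tell the clusters apart.

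Most of the family's rise lay between the P7 and P28 libraries. Levels are given in CPM, the reads of a miRNA divided by all counted reads of its library and multiplied by 1000000. Intervals of levels and shares of the family are 95% Wilson intervals, and intervals of ratios are 95% Clopper-Pearson intervals. Both cover counting error only, and not the variation between hearts. The 3 members together had 166 reads in the P1 library, which is 85.4 CPM (interval 73.3 to 99.4). They had 293 reads in the P7 library, which is 119 CPM (106 to 133), and 3241 reads in the P28 library, which is 1140 CPM (1102 to 1180). The P1 and P7 libraries were thus close to each other and the P28 library stood far above both. The level at P7 was 1.39 times that at P1 (1.15 to 1.69), and the level at P28 was 9.59 times that at P7 (8.51 to 10.9) and 13.4 times that at P1 (11.4 to 15.7). On the log2 scale, 87.3% of the rise from P1 to P28 lay after P7. The step from P7 to P28 also covers more days than the step from P1 to P7, so this share does not compare rates. The libraries come from whole tissue, in which more cells that hold miR-29 and more miR-29 per cell cannot be told apart.

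MiR-29a-3p made up nearly all of the family's reads. Its 161 reads in the P1 library gave 82.8 CPM (71.0 to 96.6), its 285 reads in the P7 library gave 116 CPM (103 to 130), and its 3155 reads in the P28 library gave 1110 CPM (1072 to 1149). The intervals of the 3 libraries did not overlap, although those of P1 and P7 lay close together. Ratios are given as log2 ratios with 0.5 reads added to each count. Their intervals, like the folds of the family above, come from the counts with nothing added. The log2 ratio of miR-29a-3p was 0.48 at P7 against P1 (0.20 to 0.77), 3.26 at P28 against P7 (3.09 to 3.44) and 3.74 at P28 against P1 (3.52 to 3.98). In the order of all mature accessions by level, it moved from place 151 of 657 detected at P1 to 133 of 712 at P7 and 43 of 606 at P28. From P7 to P28 it gained 994 CPM, the 10th largest gain among the 216 accessions whose level rose.

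MiR-29b-3p was a rare sequence at the younger ages. It had 3 reads at P1, or 1.54 CPM (0.525 to 4.54), and 4 reads at P7, or 1.62 CPM (0.631 to 4.17). At P28 it had 56 reads, or 19.7 CPM (15.2 to 25.6). The P1 and P7 intervals coincided almost wholly and the P28 interval lay above both. Its log2 ratio was 3.45 at P28 against P7 (2.17 to 5.53) and 3.46 at P28 against P1 (2.05 to 5.99). With 5 reads added in place of 0.5 these ratios were 2.56 and 2.38, and with its largest row alone, which had 39 of the 56 reads at P28, they were 2.93 and 2.95. At P7 against P1 the log2 ratio was 0.02 with an interval from -2.49 to 2.84, and its sign turned with the scaling, to -0.02 under TMM and -0.07 under DESeq2 size factors. A change of several fold in either direction between P1 and P7 was not detectable at this depth. Had miR-29b-3p stood at its P28 level in the P1 library, 38.3 reads would have been expected there, and 3 were found.

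MiR-29c-3p was also rare at the younger ages, and it too was higher at P28. It had 2 reads at P1, or 1.03 CPM (0.282 to 3.75), 4 reads at P7, or 1.62 CPM (0.631 to 4.17), and 30 reads at P28, or 10.6 CPM (7.39 to 15.1). As for miR-29b-3p, only the P28 interval stood clear of the others. Its log2 ratio was 0.51 at P7 against P1 (-2.15 to 4.12), 2.56 at P28 against P7 (1.20 to 4.67) and 3.06 at P28 against P1 (1.38 to 6.47). At the depth of the P1 library its P28 level would have given 20.5 reads, against the 2 observed.

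**Figure D1:**
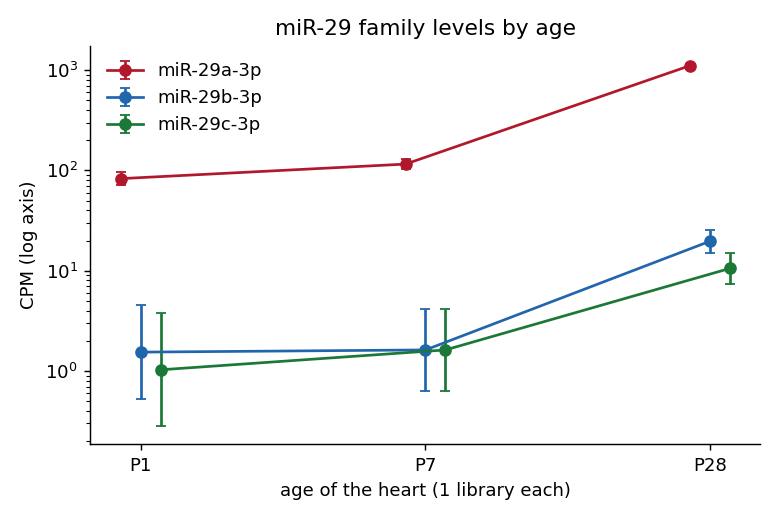
Levels of the 3 miR-29 members in hearts at P1, P7 and P28, in CPM on a log axis, with 1 library per age. Points are the library values and bars are 95% Wilson intervals for counting error. All 3 lines change by less than 2-fold from P1 to P7 and climb to P28, where miR-29a-3p reached 1110 CPM against 19.7 for miR-29b-3p and 10.6 for miR-29c-3p.

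The order of the members was clear for miR-29a-3p and less so for the other pair. MiR-29a-3p was highest in every library, with an interval that did not come near those of the others. At P28 miR-29b-3p lay above miR-29c-3p with intervals that just failed to overlap (15.2 to 25.6 against 7.39 to 15.1 CPM), and the lengths of both are within 1 base. This order rests on the sum of the 2 rows of miR-29b-3p, since its largest row alone stood at 13.7 CPM (10.04 to 18.8), which overlaps miR-29c-3p. At P7 both had 4 reads, and at P1 they had 3 and 2 reads, so that they could not be ordered at the younger ages. Each read is taken here as 1 copy of a mature sequence. How readily each sequence enters a small RNA library also sets such levels, which makes comparisons between members less secure than those of one member between libraries.

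MiR-29a-3p was the dominant member at all 3 ages, while shifts among the rare members were not detectable at this depth. MiR-29a-3p supplied 97.0% of the family's reads in P1 hearts (93.1 to 98.7), 97.3% in P7 hearts (94.7 to 98.6) and 97.3% in P28 hearts (96.7 to 97.8). MiR-29b-3p supplied 1.81% in P1 hearts (0.616 to 5.18), 1.37% in P7 hearts (0.532 to 3.46) and 1.73% in P28 hearts (1.33 to 2.24). The share of miR-29c-3p was 1.20% in P1 hearts (0.331 to 4.29), 1.37% in P7 hearts (0.532 to 3.46) and 0.926% in P28 hearts (0.649 to 1.32). For each member the 3 intervals overlapped, but those of the rare members at P1 and P7 rest on 2 to 4 reads and leave room for shares several times higher or lower.

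The same reads can be written per 100 reads of miR-29a-3p, which adds nothing to the shares but sets the rare members directly against the sequence they resemble. There were 1.86 reads of miR-29b-3p in P1 hearts (Clopper-Pearson interval 0.380 to 5.54), 1.40 in P7 hearts (0.380 to 3.63) and 1.77 in P28 hearts (1.34 to 2.31). For miR-29c-3p the values were 1.24 in P1 hearts (0.149 to 4.56), 1.40 in P7 hearts (0.380 to 3.63) and 0.951 in P28 hearts (0.640 to 1.36). MiR-29c-3p differs from miR-29a-3p only by C10U, and how reads that fit several sequences or carry a mismatch were assigned is not stated for these libraries. The part of miR-29a-3p reads in the counts of its rarer relatives was not tested, so the values of miR-29b-3p and miR-29c-3p are uncertain in this respect.

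**Figure D2:**
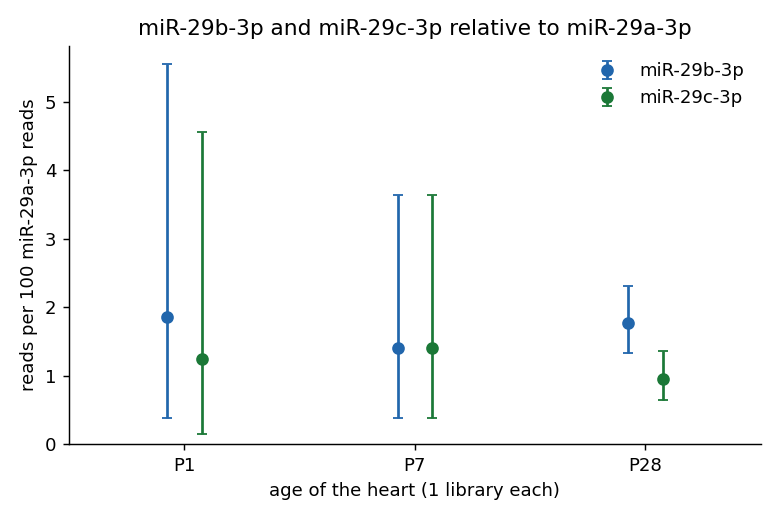
Reads of miR-29b-3p and miR-29c-3p per 100 reads of miR-29a-3p in the P1, P7 and P28 libraries, on a linear axis from 0. Bars are 95% Clopper-Pearson intervals for counting error, which narrow at P28 and overlap between ages for both members, with values between 0.951 and 1.86 that rest on 2 to 4 reads at P1 and P7.

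Differences between members in their change with age were no larger than counting error allows, but the intervals were wide. From P7 to P28, the log2 change of miR-29b-3p exceeded that of miR-29a-3p by 0.34, with an exact conditional interval from -1.11 to 2.27. Over the same step, the change of miR-29c-3p minus that of miR-29a-3p was -0.56 (-2.08 to 1.41), and that of miR-29b-3p minus that of miR-29c-3p was 0.90 (-1.64 to 3.42). From P1 to P28, the first of these differences was -0.07 (-1.72 to 2.27) and the second was -0.39 (-2.39 to 2.74). These differences are of plain counts with nothing added. All 9 intervals, for 3 pairs in 3 comparisons, included 0. The reads therefore do not separate the members' courses, and they also leave room for differences of more than 2-fold.

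The row structure of miR-29b-3p gave a further view of the P28 library. The suffix of the second row stands, by the convention of miRBase, for another genomic copy of one mature sequence, but the table does not say which row belongs to Mir29b-1 and which to Mir29b-2. The first row had 3 reads in the P1 library, 4 in the P7 library and 39 in the P28 library. The second row had 0 reads in the P1 library, 0 in the P7 library and 17 in the P28 library, which is 30.4% of the accession at P28 (Clopper-Pearson interval 18.8 to 44.1). The second row was thus seen at P28 only. A count of 0 was taken to allow 3 reads in a library. Set against that, the 5.98 CPM of the second row at P28 was 4.92-fold the limit at P7 and 3.88-fold the limit at P1. These folds leave out the counting error of the 17 reads, so they are not lower bounds. How reads that fit both copies were assigned to the rows is not stated. A change in the split itself was not detectable, since 0 of the 7 reads of P1 and P7 together allows a share of up to 41.0%. At its P28 share, the second row would have been expected to hold 0.911 reads at P1 and 1.21 at P7. No other row of the table matched the counts of any of the 4 miR-29 rows within 1% in all 3 libraries.

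The 3 libraries held between 1944237 and 2842526 counted reads, with P28 the deepest, so that 3 reads stood for 1.06 to 1.54 CPM. An entry, meaning a mature accession with its rows summed, was compared with others when the average of its levels came to 10 CPM or more, and was called higher or lower when its log2 ratio reached 1, a 2-fold difference. This left 279 entries, among them some pairs of accessions with identical counts in all 3 libraries. MiR-29a-3p passed this filter, and would have passed it from P1 and P7 alone. MiR-29b-3p had a mean of 7.62 CPM and miR-29c-3p of 4.40 CPM, and neither passed, so that 1 of the 3 members was among the 279. A filter at 1 CPM, which let 483 entries through, held all 3, and miR-29c-3p passed it only with its P28 reads.

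At P7 against P1, miR-29a-3p was not called, and 11.1% of the 279 entries were called higher. With a log2 ratio of 0.48 beside a median of 0.03, it stood at place 81 from the top. Under the filter at 1 CPM, 0 of the 3 members were called higher, against 13.9% of 483 entries. From P1 to P7 miR-29a-3p thus stood among the bulk of the miRNAs, while the rare members had too few reads to be placed.

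At P28 against P7 miR-29a-3p stood above every other entry. By library totals the median log2 ratio was -0.79, with 119 of the 279 entries called lower and 8 called higher, which is 2.87%. This backdrop depended on the scaling, as the median was -0.19 with 31 higher and 65 lower under TMM, and 0.02 with 43 higher and 55 lower under DESeq2 size factors. MiR-29a-3p was one of the 8 and had the highest log2 ratio of the 279, 3.26, followed by an entry at 2.60. It lay 4.05 above the median entry, a distance that scaling cannot change. Under the filter at 1 CPM, 3 of 3 members were called higher against 8.07% of entries. MiR-29b-3p then had place 3, miR-29a-3p place 4 and miR-29c-3p place 10 among 483. For miR-29c-3p the count is a description only, as it passed that filter through the library in which it was high.

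At P28 against P1, 13.6% of the 279 entries were called higher, and miR-29a-3p again had the highest log2 ratio, 3.74 beside a median of -0.74. The next entry was close behind at 3.58, so that this first place was narrower than at P28 against P7. Under the filter at 1 CPM, 3 of 3 members were called higher against 15.7% of 483 entries, at places 5, 10 and 13. Here too the count is a description only for miR-29c-3p, which passed that filter only with its P28 reads. The comparisons of P28 with P7 and with P1 share the P28 library and do not support each other.

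How many entries shared the timing of the rise depended on the scaling. By library totals, 7 of the 279 entries (2.51%) differed by less than 2-fold between P1 and P7 and were then at least 2-fold higher at P28, and miR-29a-3p was one of these. In contrast, 25 entries (8.96%) were higher at P7 and then changed by less than 2-fold, and 87 (31.2%) were flat to P7 and then lower. Flat means here a change of less than 2-fold, and miR-29a-3p itself was 1.40-fold higher at P7 than at P1 (1.15 to 1.70). By library totals only 1 entry was higher at both steps, against 5 under TMM, 5 under DESeq2 size factors and 5 without the 10 most abundant entries. The course of miR-29a-3p, flat and then higher, was found for 26 entries (9.32%) under TMM, 38 (13.6%) under DESeq2 size factors and 12 (4.30%) without the 10 most abundant entries in the totals, with miR-29a-3p among them each time. Flat and then lower were 44 entries (15.8%), 35 (12.5%) and 64 (22.9%) under these scalings.

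**Figure D3:**
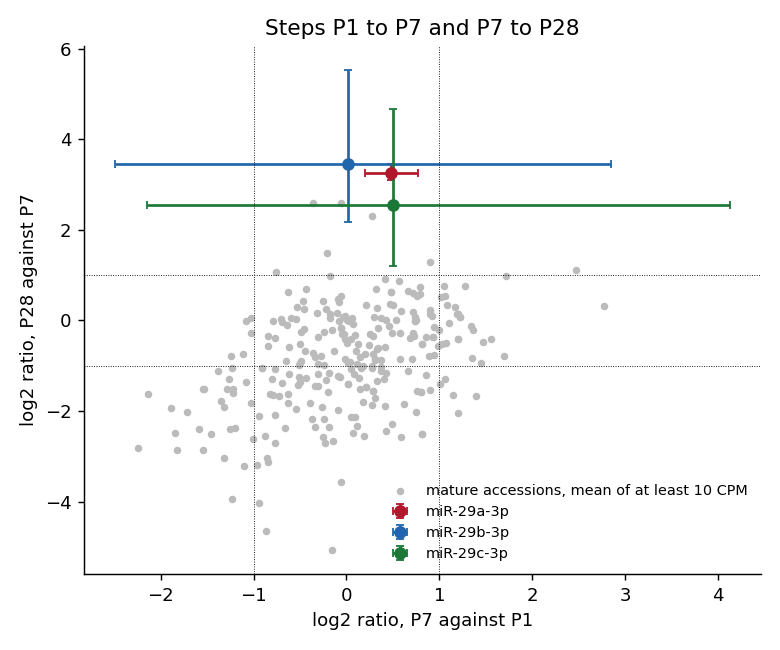
Log2 ratio at P7 against P1 (horizontal axis) and at P28 against P7 (vertical axis) for the 279 accessions that averaged 10 CPM or more (grey) and for the 3 miR-29 members with 95% Clopper-Pearson intervals. Dotted lines mark 2-fold, both axes share the P7 library, and the 3 members lie above the upper line, with miR-29a-3p at 0.48 and 3.26 and wide horizontal bars for miR-29b-3p and miR-29c-3p.

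For the rare members, entries that were as rare at P7 give the closest setting. Between 3 and 5 reads at P7 were found for 87 accessions, whose median at P28 was 2 reads. In the order of these 87 by reads at P28, miR-29b-3p with 56 was at place 1 and miR-29c-3p with 30 at place 3. One other entry with 34 reads lay between them, and the next below had 29, so that miR-29c-3p did not stand apart. In the wider class of 1 to 10 reads at P7, with 364 accessions, the members held places 1 and 4, and the highest other entry had 40 reads.

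The size of the rise depended on how libraries were scaled, and its direction did not. With TMM factors the log2 ratio of miR-29a-3p was 3.86 at P28 against P7 and 4.30 at P28 against P1, and with DESeq2 size factors it was 4.07 and 4.45. With the 10 most abundant entries left out of the library totals it was 3.61 and 4.22. Those 10 entries took 71.5% of the P1 library, 73.9% of the P7 library and 79.5% of the P28 library. By library totals, 6.30% of the entries called at P28 against P7 were higher, against 32.3% under TMM and 43.9% under DESeq2 size factors, because these scalings place the typical entry near no change. In the 48 log2 ratios of the members and their sum at P28 under the 6 other settings, each was at least 1, with the lowest at 1.75 for miR-29c-3p with 5 reads added to each count. In the corresponding 24 ratios of P7 against P1 none reached 1 in either direction.

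**Figure D4:**
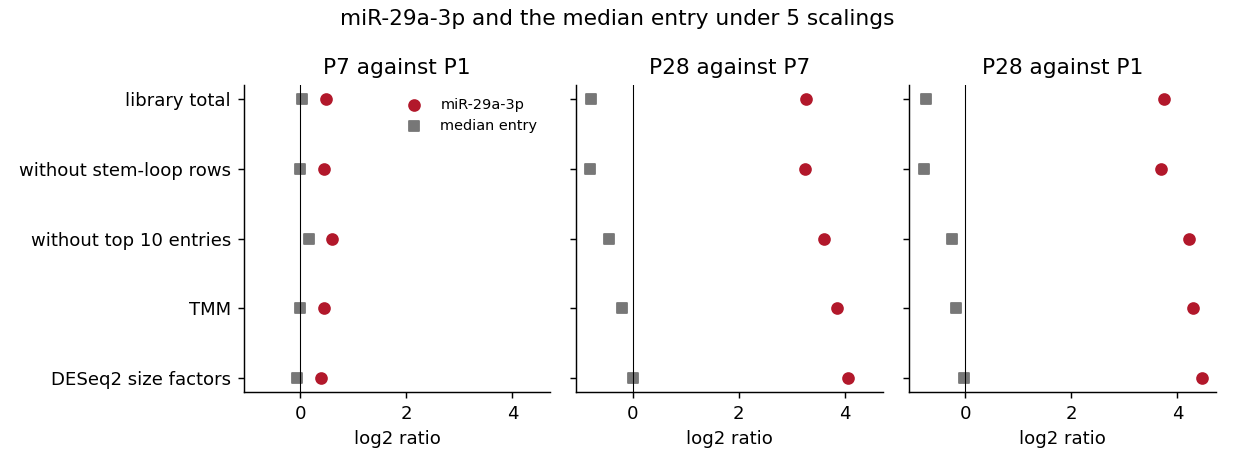
Log2 ratio of miR-29a-3p (red circles) and of the median of 279 entries (grey squares) in the 3 comparisons, under 5 ways of scaling the libraries. Scaling moves both by one amount, so that miR-29a-3p stays 4.05 above the median at P28 against P7 and 0.45 above it at P7 against P1.

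Entries with a course like the family's were sought by the distance between log2 levels, each centred on its mean over the 3 libraries, among 133 other accessions that averaged 100 CPM or more. The nearest was MIMAT0000531 at a distance of 1.85, and the next was MIMAT0000152 at 1.91, while the median distance was 3.21. MIMAT0000531 rose from 1617 CPM at P1 to 3342 at P7 and 5691 at P28, and MIMAT0000152 from 1190 to 1762 and 3232 CPM. In contrast to miR-29, the first of these was already 2-fold up at P7, with a log2 ratio of 1.05, and neither was 2-fold higher at P28 than at P7. The distances of the members to their own sum were 0.004 for miR-29a-3p, which supplies nearly all of it, 0.32 for miR-29b-3p and 0.56 for miR-29c-3p. None of the 133 came as near as the rare members, but these average below 10 CPM and are part of the sum. Entries as rare as they are were not searched, so the course is not shown to be particular to the members. With the limit lowered to 10 CPM, 278 entries were searched and the nearest lay at 0.85, and 0 of the 5 nearest were shared with those found at 100 CPM. The nearest 3 at this limit were less abundant and had the same flat and then rising shape, with log2 ratios of -0.06, 0.28 and -0.36 at P7 against P1 and of 2.60, 2.31 and 2.59 at P28 against P7.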

How the data were processed

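The deposited table holds raw read counts per miRBase accession, made by the authors without normalization, with 1 column for each of the 3 libraries. Columns were matched to ages by the age code that opens each name. The study's methods name TopHat2 as the aligner, mm10 as the genome and Bioconductor packages for counting, without a separate account for small RNA, and the submitters' processing notes also name bcl2fastq. The treatment of multiply fitting reads, the use of strand and the miRBase release are not given in the sources used here. Some pairs of accessions outside the family hold identical counts in all 3 libraries, for example 4758, 10598 and 8514 reads at P1, P7 and P28. The members of such pairs were kept as separate entries and both add to the column totals. Whether they hold the same reads was not tested. The authors' methods name no molecular identifiers, so reads copied in amplification cannot be told from separate molecules. Intervals treat each read as separate, so they may be too narrow, and they cover counting error only.

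Rows of 1 accession were summed and divided by the column total, which was 1944237 for P1, 2465680 for P7 and 2842526 for P28. With 1 library per age, edgeR's quasi-likelihood test could not be fitted, and entries were called by a 2-fold difference alone (mean of at least 10 CPM, 0.5 reads added). Differences between members used the exact conditional odds ratio. Ratios and intervals were tested on simulated counts with counting error only, in which known folds were given to entries with few reads. That setting leaves the library totals in place, so it does not test the effect of scaling. Alternatives were TMM (edgeR 4.0.16), DESeq2 1.42.0 size factors, totals without the 10 most abundant entries or without the 14 stem-loop rows, 5 reads added, the largest row per accession, each row by itself, filters at 1 and 100 CPM or none, and 1.5- and 4-fold limits. The count of entries by course over both steps was repeated under the other scalings, an alternative chosen after seeing the data. Members and lists were chosen with earlier results of these data known. Planned values for the 5p arms, for seed groups and for lists of named miRNAs are not analysed here, because accessions outside the family were not paired with names. For the same reason, of the 5 entries that the rule for similar courses selects, the nearest 2 are named. Scripts ran in Python 3.11.15 (numpy 2.4.6, pandas 2.3.3, scipy 1.17.1, matplotlib 3.10.9) and R 4.3.3.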

Additional observations from a re-analysis of the deposited data

How the results depend on the processing

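With 1 library per age, the spread between hearts is unknown, and leaving out a replicate was not possible. No paired analysis was possible because there is a single library for every age. The 2 to 4 reads of miR-29b-3p and miR-29c-3p at P1 and P7 limit every statement on them. Of 72 log2 ratios of members and their sum under other settings, 60 stayed within the counting interval of the value by library totals, among them 4 that turned sign, and 12 lay outside it. For the family, P28 against P7 was 3.86 under TMM, 4.06 under DESeq2 size factors and 3.61 without the 10 most abundant entries, and P28 against P1 was 4.30, 4.45 and 4.21. For miR-29a-3p these were 3.86, 4.07 and 3.61, and 4.30, 4.45 and 4.22. The 4 that turned were miR-29b-3p at P7 against P1, which was -0.015 under TMM, -0.070 under DESeq2 size factors, -0.0094 without stem-loop rows and -0.17 with 5 reads added. With only the largest row per accession, miR-29a-3p held 97.9% and miR-29b-3p 1.21% of the family at P28. Without the 10 most abundant entries in the totals, miR-29a-3p was at 290.2, 443 and 5420 CPM at P1, P7 and P28. Its fold between the ages changes only as given above.

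Of 66 counts of called entries, 30 were within 1.5 times of those by library totals. By library totals, the P7 and P1 libraries differed in 31 higher and 32 lower entries, P28 and P7 in 8 and 119, and P28 and P1 in 38 and 119. Between P7 and P28, the counts were 31 and 65 under TMM, 43 and 55 under DESeq2 size factors, and 17 higher without the 10 entries. Between P1 and P28 they were 64 higher, 77 and 77, and 59 higher. Between P1 and P7, 49.2% of calls were upward by library totals and 64.2% without the 10 entries. Leaving stem-loop rows out, adding 5 reads and taking each row by itself kept every count within 1.5 times. In the same order of comparisons, the filter at 1 CPM gave 67 and 71, 39 and 204, and 76 and 211. The filter at 100 CPM gave 17 and 14, 2 and 44, and 19 and 46, and no filter gave 208 and 188, 111 and 358, and 172 and 357. A 1.5-fold limit gave 70 and 65 between P1 and P7, and 22 higher between P7 and P28. A 4-fold limit gave 2 and 2, 4 and 44, and 9 and 64. Entries flat to P7 and then higher numbered 7 by library totals and 26, 38 and 12 under TMM, DESeq2 size factors and without the 10 entries, and those flat and then lower numbered 87, 44, 35 and 64.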
